A study of Mus musculus with 14 samples.

Results

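Ccl2, Ccl3, Ccl4, Ccl5, Ccl7, Ccl8, Ccl9 and Ccl12 are CC chemokine genes whose products attract monocytes. They were chosen by symbol, all 8 were found among 24035 genes, and their levels were followed in whole mouse ears. Croton oil raised the same 6 of these genes in both genotypes, and Ccl8 and Ccl5 passed the test in neither. The summed level of all 8 was 110 to 201 TPM in LC-DTR vehicle ears and 350 to 711 TPM after croton oil. In LC-DTA ears it was 241 to 260 TPM with vehicle and 1246 to 1706 TPM after croton oil. TPM, the deposited unit, gives each gene's share of all transcripts corrected for gene length, so levels of different genes can be set side by side.

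Chemokines are small secreted proteins that guide white blood cells along a concentration gradient by binding receptors that signal through G proteins. Ccl2, Ccl7 and Ccl12 bind Ccr2, the receptor by which inflammatory monocytes leave bone marrow and enter inflamed tissue. Ccl3, Ccl5 and Ccl9 act through Ccr1, which is carried by monocytes, macrophages and neutrophils, and Ccl4 attracts monocytes, macrophages and T cells. Mouse Ccl8 acts mainly through another receptor, Ccr8. In skin these chemokines are made by macrophages, endothelium, fibroblasts, keratinocytes and the recruited leukocytes themselves.

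The 14 samples were whole ear tissue from mice of 2 genotypes, both with Langerhans cells (LC, the dendritic cells of the epidermis) ablated. LC-DTA stands for long-term ablation. LC-DTR stands for short-term ablation, with ears taken 3 days after diphtheria toxin (DT). Ears received 20 µl of vehicle, acetone and olive oil at 4:1, or of 1% croton oil in that vehicle on both sides and were taken at 6 h. Croton oil is a plant irritant rich in phorbol esters. The groups were LC-DTR vehicle (n = 3), LC-DTR croton oil (n = 4), LC-DTA vehicle (n = 3) and LC-DTA croton oil (n = 4). The sources used here do not give strain, age, sex, the promoter behind either transgene or whether LC-DTA mice received DT. Transgene, length of ablation and DT therefore cannot be told apart in a genotype difference, and ears with intact Langerhans cells were not analysed here. The labels number the LC-DTA samples 10575 to 10797 and the LC-DTR samples 10825 to 11098, without saying what the numbers mean. Anything that follows number order cannot be told apart from genotype either. LC-DTR croton oil samples were 10851 to 10854. LC-DTA croton oil samples 1 and 2 were 10601 and 10602, and samples 3 and 4 were 10796 and 10797. Nothing in the labels says that samples came from separate animals, so p-values measure the spread between these samples.

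Cd207, which encodes langerin, a marker of Langerhans cells, was between 0.06 and 1.88 TPM in the 14 samples. Its highest value was in LC-DTR croton oil sample 1, and it was too low to be tested. Without ears with intact Langerhans cells, these levels do not show the extent of ablation. TPM keep no read depth, and 13733 to 14332 genes reached 1 TPM per sample. LC-DTR croton oil samples 2 and 3 stood apart from samples 1 and 4, with scores of 5.26 and 8.06 against 28.5 and 28.6 on the first principal component. LC-DTR vehicle sample 3 was also unlike its group in several chemokines. Where leaving out these samples ended a member's call or moved a called value by over 1.5 times, both values are given.

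The 8 genes lie on chromosome 11 in 2 clusters (GRCm38, GENCODE M21). On the plus strand, Ccl2 (chr11:82035571-82037453), Ccl7 (chr11:82045712-82047525), Ccl12 (chr11:82101845-82103400) and Ccl8 (chr11:82115185-82116799) span 81.229 kb, with Ccl11 among them. After a gap of 1408.978 kb come Ccl5 (chr11:83525778-83530518), Ccl9 (chr11:83572919-83578636) and Ccl3 (chr11:83647844-83649355) on the minus strand and Ccl4 (chr11:83662584-83664683) on the plus strand, with Ccl6 among them. Each is protein coding, with 4 exons in Ccl9 and 3 in the others. Related members share short stretches of transcript. The longest identical run was 23 bases between Ccl2 and Ccl7, 17 bases between Ccl2 and Ccl12, and 25 bases between Ccl9 and its neighbour Ccl6.

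Promoter sequences matched 4 members, Ccl3, Ccl8, Ccl9 and Ccl12, in RefSeq (GRCm38.p6). They are shown because Ccl12 and Ccl8 are neighbours that differed in their croton oil response, while Ccl9 and Ccl3 come from the other cluster. The 160 bases before the transcript start are written 5′ to 3′ on the gene's own strand, for Ccl12 (chr11:82101685-82101844, plus), Ccl8 (chr11:82115025-82115184, plus), Ccl9 (chr11:83578637-83578796, minus) and Ccl3 (chr11:83649379-83649538, minus). For Ccl3 the RefSeq start lies upstream of the GENCODE gene boundary given above (83649355), so the bases between that and 83649379 were not searched. Capitals mark matches, on either strand, to TATAAA, to the AP-1 motif TGANTCA, to CCAAT or to the NF-kB consensus.
Ccl12: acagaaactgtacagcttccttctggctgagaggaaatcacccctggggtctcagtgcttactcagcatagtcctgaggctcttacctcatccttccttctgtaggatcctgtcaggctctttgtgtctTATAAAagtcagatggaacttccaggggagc
Ccl8: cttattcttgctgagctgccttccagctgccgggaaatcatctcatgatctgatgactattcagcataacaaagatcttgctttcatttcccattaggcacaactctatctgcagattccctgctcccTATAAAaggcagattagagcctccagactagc
Ccl9: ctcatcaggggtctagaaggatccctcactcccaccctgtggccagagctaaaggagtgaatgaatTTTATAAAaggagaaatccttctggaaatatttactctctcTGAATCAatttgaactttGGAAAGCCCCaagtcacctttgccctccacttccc
Ccl3: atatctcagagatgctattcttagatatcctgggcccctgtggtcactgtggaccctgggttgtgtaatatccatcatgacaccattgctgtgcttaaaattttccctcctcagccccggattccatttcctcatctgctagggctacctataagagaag

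Ccl12 and Ccl8 each held 1 TATAAA at nearly the same place, from base -31 to -26 and from -32 to -27 before the start. In Ccl9 the AP-1 match lay at -53 to -47 and the NF-kB match, on the opposite strand, at -35 to -26. The Ccl9 stretch TTTATAAA is a match on each strand that overlaps itself. No CCAAT was present in the 250 bases searched before each of the 4 starts, and Ccl3 held none of the 4 motifs there. Among 32851 promoter windows of that length, 12.4% held TATAAA, 6.75% the AP-1 motif, 7.25% the NF-kB consensus and 33.8% CCAAT. A match is a description of letters in this window.

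The first question was how the 8 genes answered croton oil. In LC-DTR ears Ccl2, Ccl3, Ccl4, Ccl7, Ccl9 and Ccl12 rose and none fell. The same 6 genes rose in LC-DTA ears, again with none lower. By limma, 0 members were lower at an unadjusted p under 0.05 in either genotype. Tests were made with limma on log2(TPM + 1), fitted across all 14 samples for the 14693 genes with at least 1 TPM in at least 3 samples. The threshold for a call was 0.05 on p-values adjusted by Benjamini-Hochberg over all tested genes. All 8 members passed the filter, although Ccl4 was under 1 TPM in every LC-DTR vehicle sample. Of all tested genes, 22.1% were called higher and 29.5% lower after croton oil in LC-DTR, and 24.2% higher and 34.5% lower in LC-DTA. The members' median log2 difference was 2.20 in LC-DTR, beside -0.06 for all tested genes, and 2.73 in LC-DTA, beside -0.09. Differences on this scale understate the change of low genes such as Ccl3 and Ccl4.

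**Figure D1:**
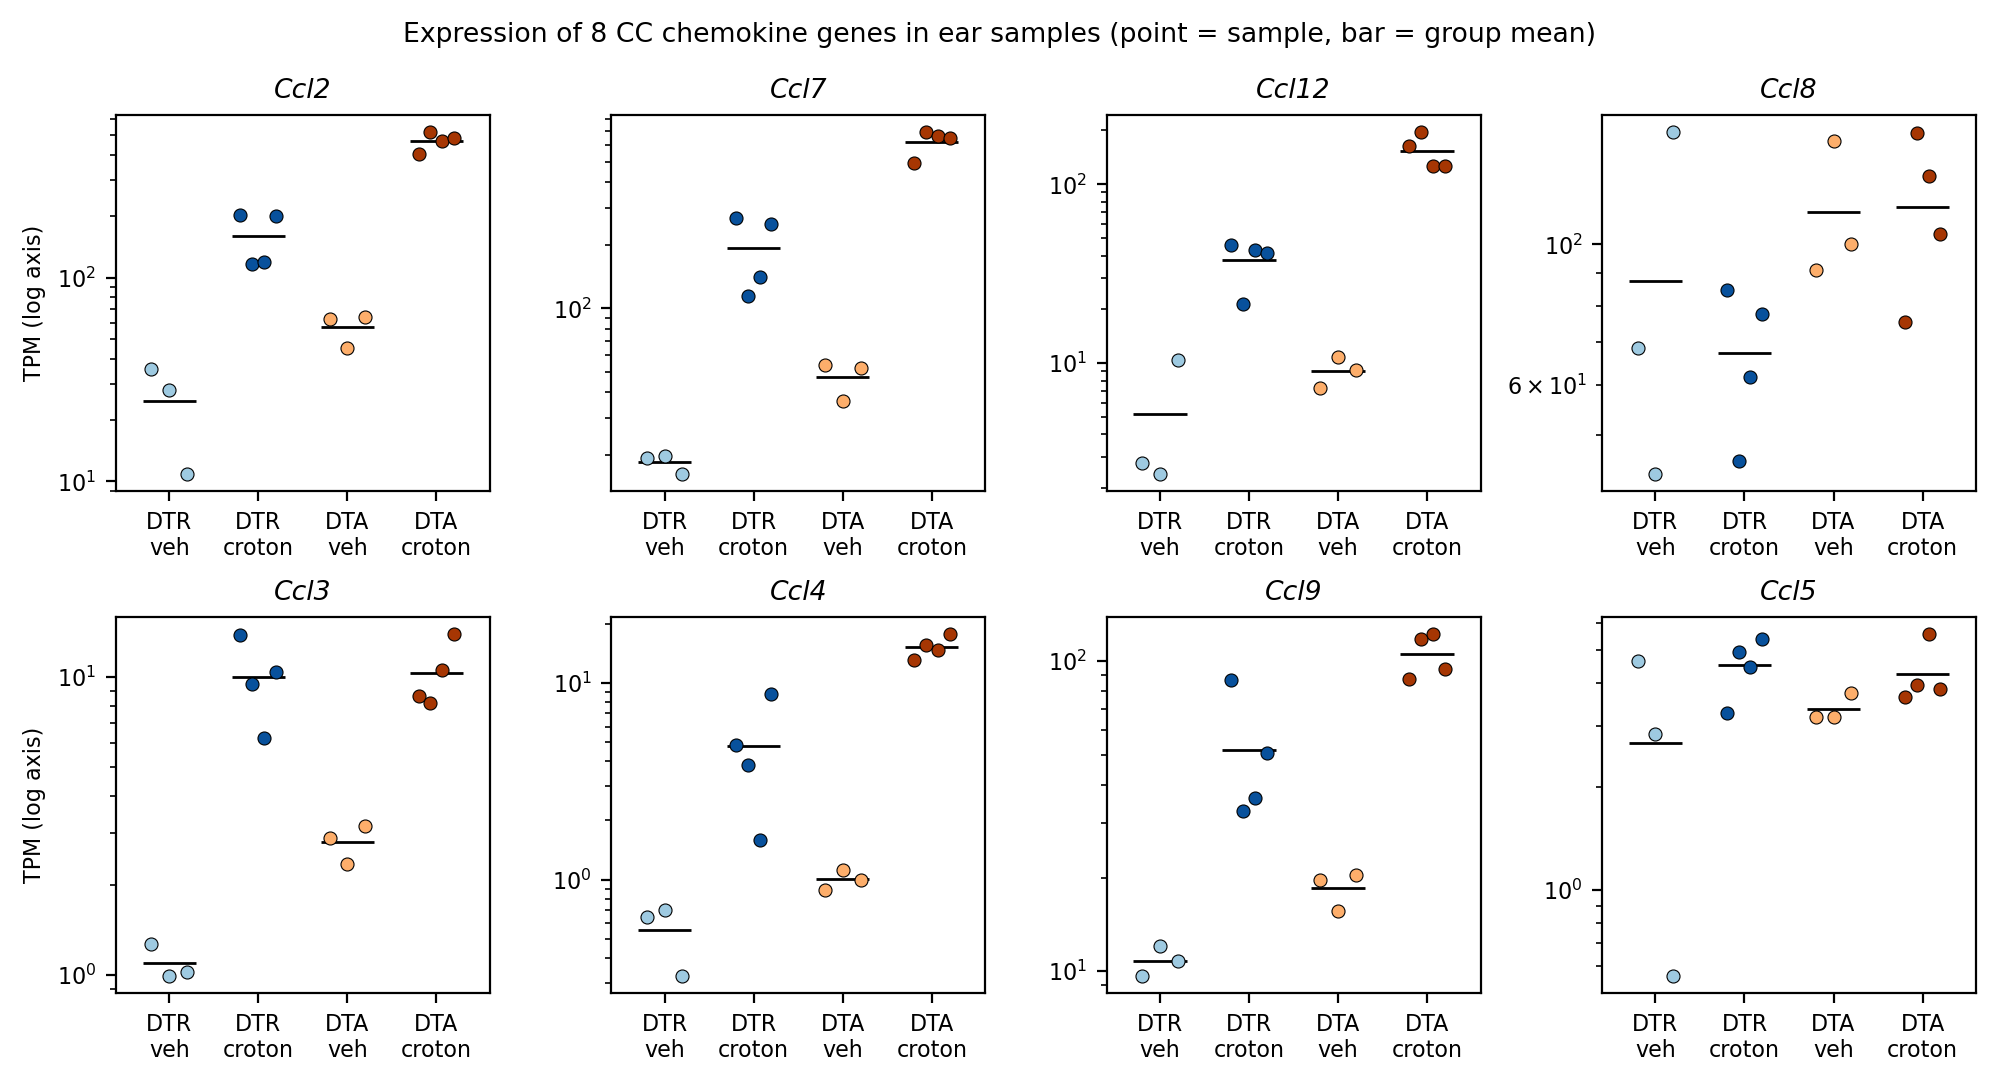
TPM of each of the 8 genes in each sample on log axes, by genotype and treatment (points, samples; bars, group means). The LC-DTA croton oil samples stood above all others for Ccl2 (403 to 519 TPM), Ccl7 (492 to 694 TPM) and Ccl12 (126 to 197 TPM). For Ccl8, treated and vehicle samples of each genotype overlapped, as did the genotypes within each treatment.

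Ccl2, the main Ccr2 ligand, was at 35.7, 28.0 and 10.8 TPM in LC-DTR vehicle ears and at 204, 117, 119 and 200 TPM after croton oil. In LC-DTA ears it went from 62.9, 45.3 and 64.1 TPM to 403, 519, 466 and 483 TPM. Treated and vehicle samples did not overlap in either genotype, and LC-DTR samples 1 and 4 were well above samples 2 and 3. The log2 difference was 2.74 ± 0.31 (SE; limma adjusted p = 1.91e-05) in LC-DTR and 3.02 ± 0.31 (adjusted p = 5.62e-06) in LC-DTA.

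Ccl7, a Ccr2 ligand that also binds Ccr1 and Ccr3, had the highest mean of the 8 genes in both croton oil groups. Its levels were 19.5, 19.9 and 16.2 TPM in LC-DTR vehicle ears and 269, 115, 140 and 251 TPM after croton oil. LC-DTA ears had 53.6, 36.2 and 51.9 TPM with vehicle and 492, 694, 662 and 647 TPM after croton oil. Again no treated sample overlapped a vehicle sample, and LC-DTR samples 1 and 4 were the higher pair. Ccl7 rose by 3.23 ± 0.25 (limma adjusted p = 1.30e-06) and 3.70 ± 0.25 (adjusted p = 5.31e-07) on the log2 scale.

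Ccl12, a mouse Ccr2 ligand, was at 2.78, 2.40 and 10.4 TPM in LC-DTR vehicle ears and at 45.8, 21.5, 43.1 and 41.5 TPM after croton oil. In LC-DTA ears the values were 7.28, 10.8 and 9.12 TPM, then 163, 197, 126 and 127 TPM. Here LC-DTR vehicle sample 3 was the high one of its group, and croton oil sample 2 alone was low. The log2 difference was 2.83 ± 0.36 (limma adjusted p = 4.05e-05) in LC-DTR and 3.92 ± 0.36 (adjusted p = 2.60e-06) in LC-DTA, the largest among the 8 genes in LC-DTA.

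Ccl8, 11784 bases beyond Ccl12, did not share this response. LC-DTR vehicle ears had 68.6, 43.3 and 151 TPM and treated ears 84.6, 45.5, 61.8 and 77.7 TPM. LC-DTA vehicle ears had 91.0, 146 and 100.3 TPM and treated ears 75.4, 149.97, 128 and 104 TPM. Treated and vehicle samples overlapped in both genotypes. The log2 difference was -0.22 (95% interval -0.97 to 0.53) in LC-DTR and 0.01 (-0.74 to 0.76) in LC-DTA. Its sign turned in LC-DTR without vehicle sample 3, to 0.26.

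Ccl9, a Ccr1 ligand, was at 9.63, 12.1 and 10.8 TPM in LC-DTR vehicle ears and at 86.7, 33.0, 36.3 and 50.5 TPM after croton oil. LC-DTA ears had 19.7, 15.6 and 20.4 TPM, then 87.4, 118, 123 and 94.5 TPM. Every treated sample was above every vehicle sample of its genotype. Ccl9 rose by 2.05 ± 0.25 (limma adjusted p = 2.84e-05) and 2.44 ± 0.25 (adjusted p = 5.19e-06) on the log2 scale.

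Ccl3, a Ccr1 ligand, was at 1.27, 0.99 and 1.03 TPM in LC-DTR vehicle ears and at 13.8, 9.48, 6.23 and 10.4 TPM after croton oil. LC-DTA ears started higher, at 2.88, 2.35 and 3.18 TPM, and reached 8.63, 8.19, 10.5 and 13.97 TPM. The treated samples of the genotypes covered much the same range. The log2 difference was 2.35 ± 0.21 (limma adjusted p = 2.67e-06) in LC-DTR and 1.55 ± 0.21 (adjusted p = 3.46e-05) in LC-DTA.

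Ccl4, encoded 13228 bases from Ccl3, was at 0.64, 0.70 and 0.32 TPM in LC-DTR vehicle ears and at 4.84, 3.84, 1.59 and 8.75 TPM after croton oil. In LC-DTA ears it went from 0.89, 1.12 and 1.00 TPM to 13.1, 15.7, 14.7 and 17.8 TPM. The LC-DTA croton oil samples were close together and above all others, whereas the LC-DTR ones spread widely. Ccl4 rose by 1.74 ± 0.30 (limma adjusted p = 3.71e-04) and 3.02 ± 0.30 (adjusted p = 4.32e-06) on the log2 scale.

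Ccl5, which binds Ccr1 and Ccr3 and is typical of T cells, stayed low. It was at 4.63, 2.84 and 0.56 TPM in LC-DTR vehicle ears and 3.28, 4.91, 4.44 and 5.38 TPM after croton oil. LC-DTA ears had 3.19, 3.19 and 3.73 TPM, then 3.63, 3.96, 5.57 and 3.83 TPM. Groups overlapped in both genotypes, with log2 differences of 0.75 (95% interval 0.09 to 1.42; limma adjusted p = 0.0559) in LC-DTR and 0.25 (-0.41 to 0.92; adjusted p = 0.502) in LC-DTA. In LC-DTR it passed the threshold under median ratio scaling (0.80), under quantile normalization (0.87), without vehicle sample 1 (1.15) and without croton oil sample 1 (0.87). Without vehicle sample 3, its lowest sample, the difference was 0.23.

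**Figure D2:**
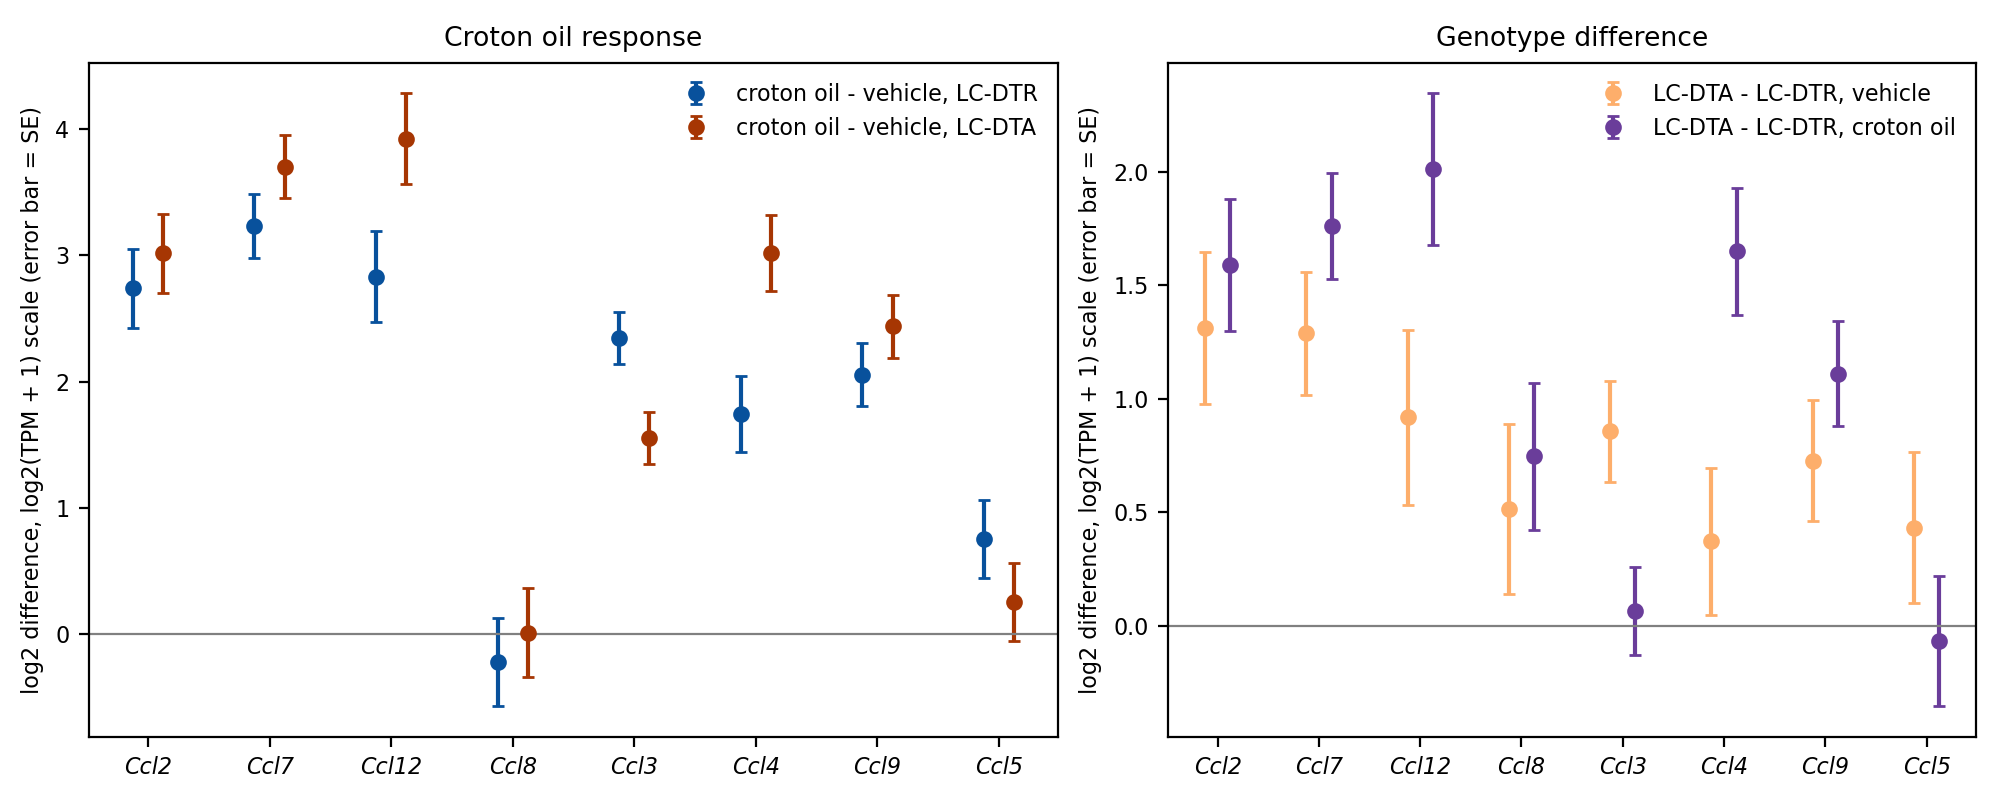
Log2 differences with SE for the 8 genes, croton oil against vehicle in each genotype (left) and LC-DTA minus LC-DTR with either treatment (right). Ccl8 lay near 0 in the left panel, and Ccl12 had the largest difference on both sides, 3.92 in LC-DTA and 2.01 between genotypes after croton oil.

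Treated and vehicle ranges did not overlap for 6 of the 8 genes in each genotype. Non-overlapping higher ranges were seen in 20.6% of all tested genes in LC-DTR and 26.1% in LC-DTA. All 6 calls held in both genotypes under each of 26 other settings, which included leaving out each sample and leaving out LC-DTR croton oil samples 2 and 3 together. In bulk tissue, a change in the number of cells of a type and a change in RNA per cell cannot be told apart.

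The next question was whether the genotypes differed before irritation. Under vehicle, Ccl2, Ccl3 and Ccl7 were higher in LC-DTA than in LC-DTR and no member was lower. Ccl7 differed by 1.29 ± 0.27 on the log2 scale (limma adjusted p = 0.00456), Ccl2 by 1.31 ± 0.34 (adjusted p = 0.0125) and Ccl3 by 0.86 ± 0.22 (adjusted p = 0.0133). These came to ratios of mean TPM of 2.55, 2.31 and 2.56. Over all tested genes, 19.1% were called higher in LC-DTA and 5.34% lower. That split depends on scaling, with 2810 higher and 785 lower genes as deposited, 1811 and 1537 after rescaling samples by median ratios, and 1616 and 1772 after quantile normalization. The calls of Ccl2, Ccl3 and Ccl7 held under both scalings. No member was lower at an unadjusted p under 0.05 by limma, here or after croton oil. The members' median difference was 0.79, beside 0.10 for all tested genes.

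Ccl9 (0.73, limma adjusted p = 0.0624), Ccl12 (0.92, adjusted p = 0.0982), Ccl8 (0.52, adjusted p = 0.340), Ccl5 (0.43, adjusted p = 0.367) and Ccl4 (0.37, adjusted p = 0.429) did not pass under vehicle. Ranges did not overlap for Ccl2, Ccl3, Ccl4, Ccl7 and Ccl9, each higher in LC-DTA, as for 31.4% of all tested genes. LC-DTR vehicle sample 3 bore on several of these values. Without it, 5 members were called, because Ccl12 (1.48) and Ccl8 (1.00) passed, while Ccl2 fell to 0.82 and was still called. Without LC-DTA vehicle sample 3 only Ccl7 was called. The call of Ccl2 was also lost with only the compared groups in the fit (adjusted p = 0.0511 by limma), and that of Ccl3 without LC-DTR vehicle sample 2 (0.82) and with a pseudocount of 5 (0.36). Ccl9 was called with only the compared groups in the fit, without LC-DTR croton oil sample 1 or 2, and without LC-DTR croton oil samples 2 and 3.

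After croton oil, Ccl2, Ccl4, Ccl7, Ccl9 and Ccl12 were higher in LC-DTA and no member was lower. Ccl12 differed most, by 2.01 ± 0.33 on the log2 scale (limma adjusted p = 2.49e-04), with a mean of 153 ± 33.8 TPM (SD, n = 4) in LC-DTA and 38.0 ± 11.1 TPM (SD, n = 4) in LC-DTR. Ccl7 differed by 1.76 ± 0.23 (adjusted p = 5.02e-05), Ccl4 by 1.65 ± 0.28 (adjusted p = 2.89e-04), Ccl2 by 1.59 ± 0.29 (adjusted p = 5.12e-04) and Ccl9 by 1.11 ± 0.23 (adjusted p = 0.00131). Each of these 5 had non-overlapping ranges, as did 29.6% of all tested genes. Called higher were 34.3% of all tested genes and called lower 18.0%. Under median ratio scaling the numbers changed from 5041 higher and 2647 lower genes to 3720 and 3702. All 5 calls held under each of 26 other settings, and Ccl9 was at 0.65 without LC-DTR croton oil samples 2 and 3.

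Ccl3 was nearly level between the genotypes after croton oil, at 0.06 (95% interval -0.35 to 0.48). Its sign changed under median ratio scaling (-0.02) and quantile normalization (-0.09). Ccl5 differed by -0.07 (-0.68 to 0.55). Ccl8 differed by 0.75 (0.05 to 1.44; limma adjusted p = 0.0675) and passed the threshold without LC-DTA croton oil sample 1 (0.93), with only the compared groups in the fit, and without LC-DTR vehicle sample 2 or 3. Without LC-DTR croton oil samples 2 and 3 it was at 0.45 and not called. The members' median difference was 1.35, beside 0.09 for all tested genes. This comparison and those above share samples, so their values are not independent.

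A difference between the genotypes in the croton oil response itself was called for Ccl4 alone among the 8 genes. Its response was larger in LC-DTA by 1.28 ± 0.43 on the log2 scale (interaction term, limma adjusted p = 0.0445). Of all tested genes, 10.5% were called in that direction and 12.6% in the other. Mean Ccl4 under vehicle was 0.56 TPM in LC-DTR and 1.00 TPM in LC-DTA, beside the 1 TPM added before taking logs. The log2 scale therefore understates its rise more in LC-DTR, which enlarges its interaction value. The ratios of mean TPM, croton oil to vehicle, were 8.56 in LC-DTR and 15.3 in LC-DTA. The call was lost under 17 of 25 other settings, among them a pseudocount of 0.1, no filter, median ratio scaling and the omission of any single sample other than LC-DTR croton oil sample 3 or 4. Over all 25 settings the limma adjusted p ran from 0.0059 to 0.182, and the value was 0.73 without LC-DTR croton oil samples 2 and 3. Ccl3 had the opposite sign, at -0.79 (95% interval -1.42 to -0.16; limma adjusted p = 0.0659), and was called under 5 of 25 other settings. One was a pseudocount of 0.1, with which Ccl3 was called and Ccl4 was not. The others left out LC-DTR croton oil sample 3 (-0.98), LC-DTA croton oil sample 4 (-0.94), LC-DTR croton oil samples 2 and 3, or LC-DTA croton oil samples 3 and 4. Ccl12 had 1.09 (-1.49e-04 to 2.19; adjusted p = 0.135).

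For Ccl2 the difference of responses was 0.28 (95% interval -0.68 to 1.23), for Ccl7 0.47 (-0.30 to 1.24) and for Ccl9 0.38 (-0.38 to 1.14). All 3 were called higher in LC-DTA after croton oil, and Ccl2 and Ccl7 under vehicle too, but a difference in the size of their response was not detected. The intervals allow a larger response in either genotype. Ccl8 (0.23, -0.83 to 1.30) and Ccl5 (-0.50, -1.44 to 0.44) were not called either. The median over the members was 0.33, beside -0.02 for all tested genes.

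The mix of the 8 transcripts also shifted. Ccl8 held 54.1% ± 18.6 (SD, n = 3) of their summed TPM in LC-DTR vehicle ears and 44.4% ± 10.1 (SD, n = 3) in LC-DTA vehicle ears. After croton oil it held 13.0% ± 1.42 (SD, n = 4) and 7.54% ± 1.26 (SD, n = 4). Ccl2 and Ccl7 together went from 31.9% ± 16.1 to 66.3% ± 2.90 in LC-DTR and from 41.7% ± 9.15 to 73.1% ± 2.07 in LC-DTA. Since the level of Ccl8 itself was not called as changed, its smaller share went with the rise of the others.

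**Figure D3:**
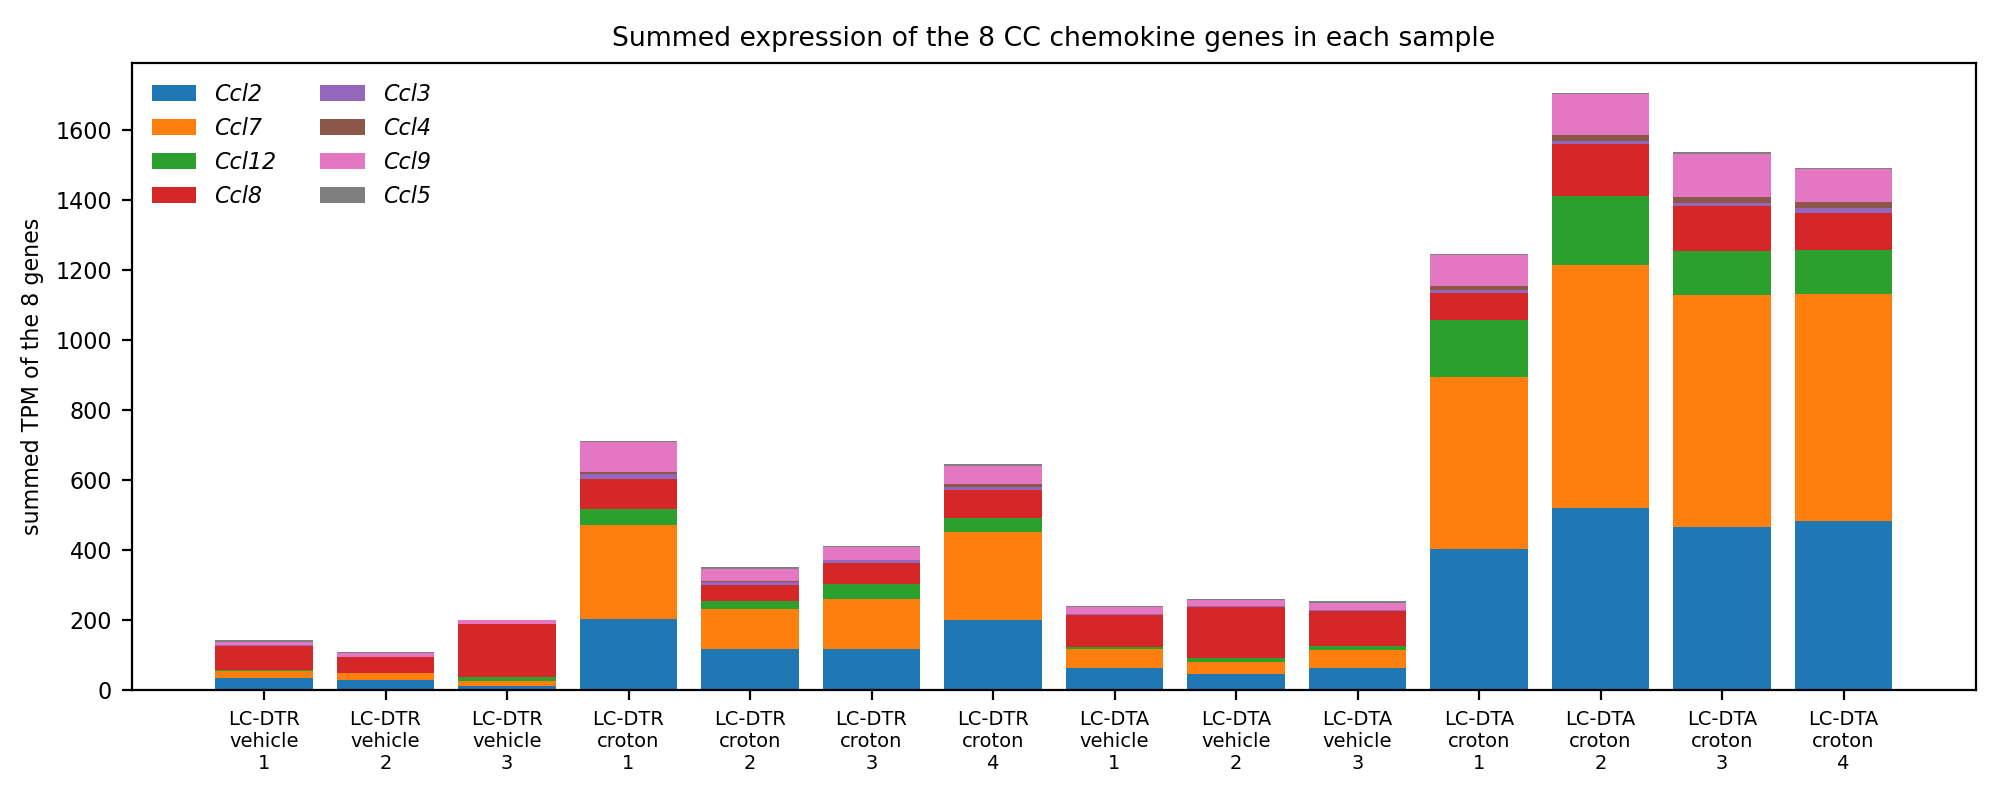
Summed TPM of the 8 genes in each sample, with stacked segments for each gene. Sums were 110 to 201 in LC-DTR vehicle, 350 to 711 in LC-DTR croton oil, 241 to 260 in LC-DTA vehicle and 1246 to 1706 in LC-DTA croton oil samples.

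In order of mean TPM, both vehicle groups ran Ccl8, Ccl2, Ccl7, Ccl9, Ccl12, Ccl5, Ccl3, Ccl4. Neighbours Ccl2 and Ccl7 overlapped in both, and in LC-DTR so did Ccl9 with Ccl12, Ccl12 with Ccl5, and Ccl5 with Ccl3. After croton oil Ccl7 and Ccl2 led in both genotypes and overlapped each other. In LC-DTR they were followed by Ccl8, Ccl9 and Ccl12, of which neighbours overlapped, and then by Ccl3, Ccl4 and Ccl5, likewise. In LC-DTA Ccl12, Ccl8 and Ccl9 came next, again with overlapping neighbours, then Ccl4 and Ccl3, which overlapped, and last Ccl5.

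Within the gene pairs, the TPM ratio of Ccl4 to Ccl3 was 1.27 to 1.91 in LC-DTA croton oil samples and 0.25 to 0.84 in the other 10 samples. Ccl4 was thus above Ccl3 in the LC-DTA croton oil samples alone. The ratio of Ccl12 to Ccl8 was 0.04 to 0.09 in the 6 vehicle samples, 0.47 to 0.70 in LC-DTR croton oil samples and 0.98 to 2.16 in LC-DTA croton oil samples.

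**Figure D4:**
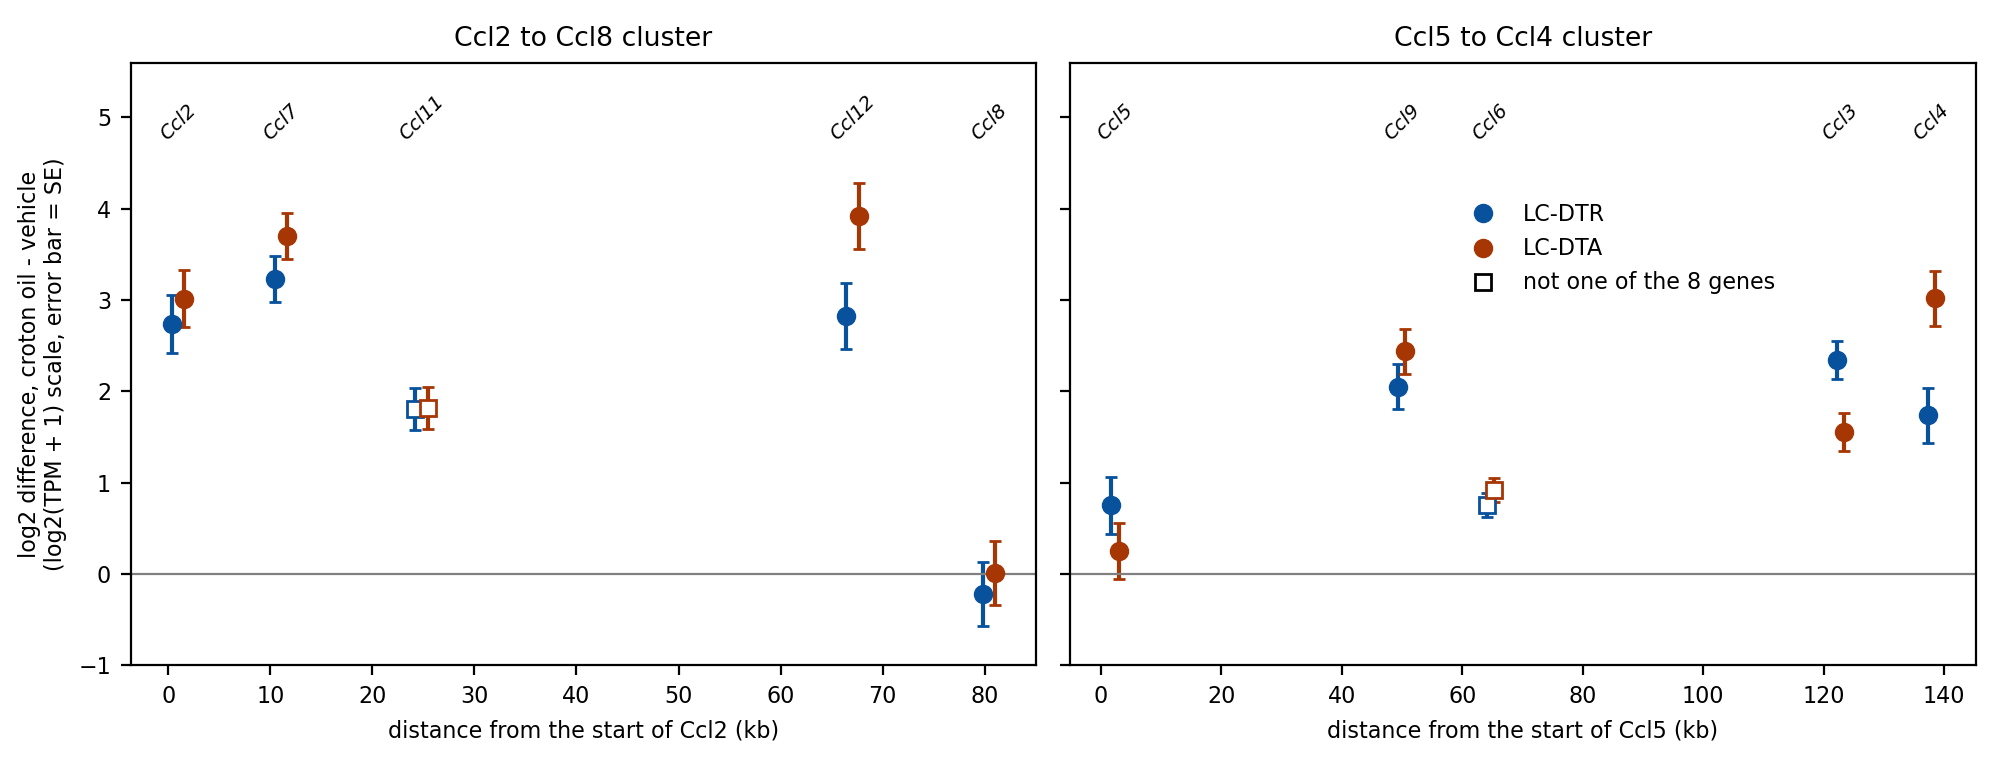
Log2 difference with SE, croton oil against vehicle, of each gene against its distance along the chromosome from the first gene of its cluster (kb), for both genotypes. Ccl8 and Ccl5, at the ends of the clusters that face each other, lay nearest 0, and the open squares are Ccl11 and Ccl6, which are not among the 8 genes.

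Of 10 tested genes among the other CC chemokines, 4 rose and 2 fell in LC-DTR, and 5 rose and 2 fell in LC-DTA. Over all tested genes, 22.1% were called higher and 29.5% lower in LC-DTR, and 24.2% higher and 34.5% lower in LC-DTA. The croton oil counts of the lists below are to be read beside the same shares. Ccl11, an eosinophil attractant encoded between Ccl7 and Ccl12, rose by 1.80 ± 0.23 (limma adjusted p = 4.10e-05) and 1.82 ± 0.23 (adjusted p = 2.23e-05) on the log2 scale. Ccl6, a Ccr1 ligand beside Ccl9, rose by 0.76 ± 0.13 and 0.92 ± 0.13, adjusted p = 3.60e-04 and 5.83e-05 by limma. Ccl20, which attracts Ccr6-bearing cells, rose by 3.57 ± 0.80 and 4.80 ± 0.80. Its LC-DTR vehicle values were 81.7, 202 and 5.21 TPM, so its size there rests on an uneven group. Ccl22 fell in both genotypes. Ccl24, another eosinophil attractant, was at 2.69 to 4.81 TPM in LC-DTR croton oil and 26.9 to 63.2 TPM in LC-DTA croton oil samples, and was higher in LC-DTA under vehicle too (1.69 ± 0.31, adjusted p = 0.00247).

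Receptor genes were followed next. Ccr2 was at 8.87, 5.58 and 7.31 TPM in LC-DTR vehicle ears and at 8.30, 4.54, 5.50 and 7.40 TPM after croton oil. In LC-DTA ears it went from 5.47, 5.24 and 6.51 TPM to 30.5, 42.9, 40.1 and 38.0 TPM. Only the LC-DTA croton oil samples stood apart. The log2 difference was -0.16 (95% interval -0.55 to 0.22) in LC-DTR and 2.52 ± 0.18 (limma adjusted p = 7.01e-07) in LC-DTA, and the responses differed by 2.68 ± 0.25 (interaction, adjusted p = 8.20e-05). Ccr2 thus was not called in LC-DTR, where its ligands Ccl2, Ccl7 and Ccl12 rose.

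Ccr1 rose in both genotypes, from 1.05, 1.23 and 2.03 TPM to 12.1, 6.26, 6.24 and 11.7 TPM in LC-DTR, and from 1.89, 1.81 and 1.76 TPM to 18.6, 26.0, 27.2 and 23.2 TPM in LC-DTA. Its treated and vehicle samples did not overlap in either genotype. The response was larger in LC-DTA by 1.11 ± 0.31 on the log2 scale (interaction, limma adjusted p = 0.0198). That call was lost without LC-DTA croton oil samples 3 and 4 together, at 1.02, and with a pseudocount of 0.1. Without LC-DTR croton oil samples 2 and 3 it held at 0.70. Ccr1 and Ccr3 share an identical run of 47 bases, so reads there could be split between them.

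Ccr3, an eosinophil and basophil receptor, passed the filter through the LC-DTA croton oil group alone (0.85 to 1.32 TPM, against 0.03 to 0.27 TPM in all other samples), so its difference there follows from the filter. Ackr1 and Ackr2 encode atypical receptors that bind chemokines without G protein signalling, on venules and on lymphatic cells. Ackr2 rose in LC-DTR by 0.75 ± 0.14 (limma adjusted p = 7.17e-04) and had 0.33 in LC-DTA (adjusted p = 0.0588), and the difference of the responses was not called (adjusted p = 0.148). Ackr1 was higher in LC-DTA under vehicle by 0.80 ± 0.24 (adjusted p = 0.0244), a call lost when LC-DTR vehicle sample 2, LC-DTA vehicle sample 2 or LC-DTA vehicle sample 3 was left out. Ccrl2, a non-signalling receptor for chemerin, was lower in LC-DTA after croton oil by 1.29 ± 0.31 in log2 size (log2 difference -1.29, adjusted p = 0.00325). Its call in LC-DTR after croton oil (0.83, adjusted p = 0.04998) was lost under most other settings, and the value was 0.25 without LC-DTR vehicle sample 3.

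**Figure D5:**
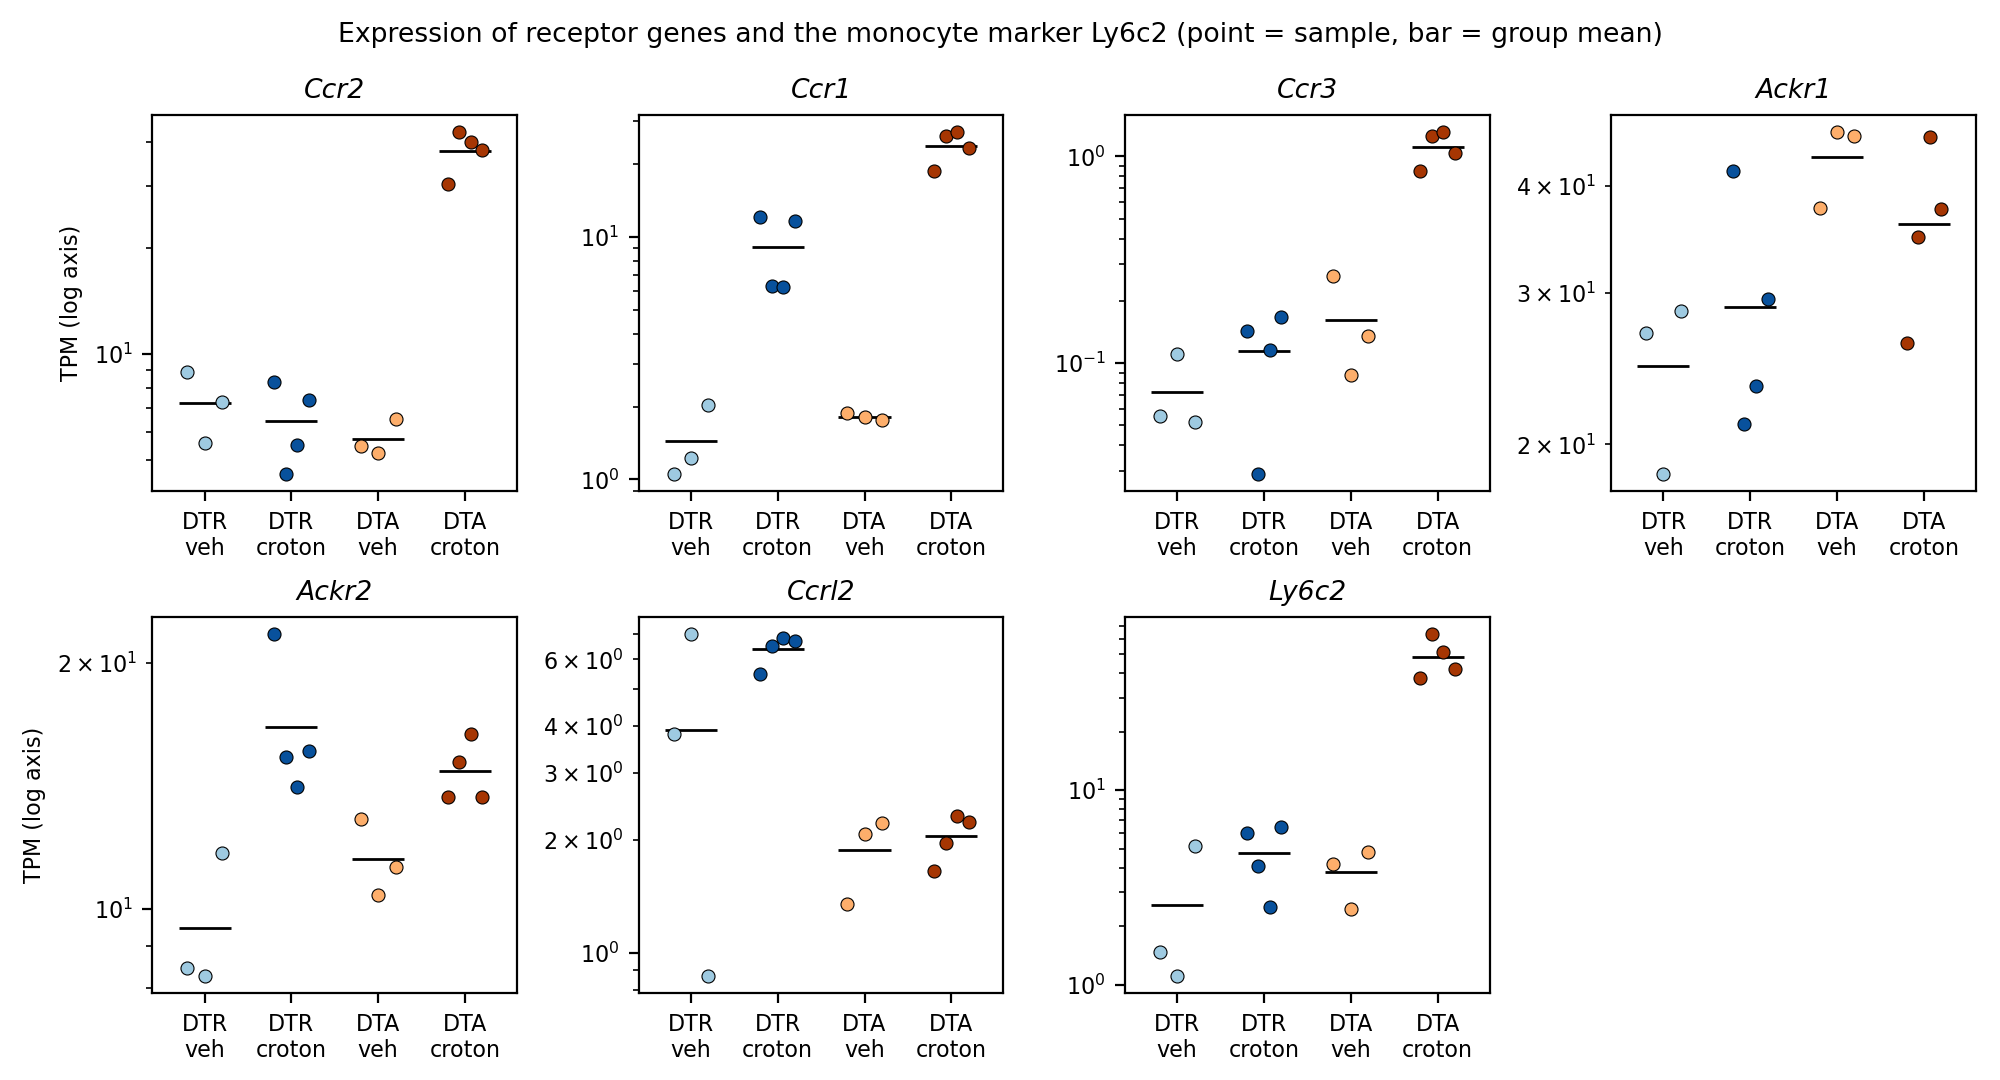
TPM of 6 receptor genes and of the monocyte marker Ly6c2 in each sample on log axes (points, samples; bars, group means). Ccr2 (30.5 to 42.9 TPM) and Ly6c2 (37.7 to 63.9 TPM) were high in the 4 LC-DTA croton oil samples alone.

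Genes that induce or control these chemokines rose in both genotypes. Of 20 tested cytokine, NF-kB, AP-1 and interferon regulator genes, 16 rose and none fell in each, and by limma 0 were lower at an unadjusted p under 0.05. Il1b and Il6, inflammatory cytokines, rose by 3.13 ± 0.28 and 2.94 ± 0.24 in LC-DTR (limma adjusted p = 2.67e-06 and 1.81e-06) and by 3.66 ± 0.28 and 3.98 ± 0.24 in LC-DTA (adjusted p = 9.32e-07 and 3.39e-07). Fosl1, an AP-1 subunit, rose by 2.23 ± 0.24 in LC-DTR. The interaction was called for Il6 (1.03 ± 0.35, adjusted p = 0.0446), and for Rela, an NF-kB subunit, with the opposite sign (-0.55 ± 0.10, adjusted p = 0.00219). Mean Il6 went from 0.49 to 10.8 TPM in LC-DTR and from 0.99 to 30.5 TPM in LC-DTA. Both vehicle means lay under the 1 TPM added before taking logs, and the LC-DTR mean was the lower. The log2 scale therefore understates the Il6 rise more in LC-DTR, which enlarges its interaction value.

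Of 14 tested genes of chemokine receptor signalling or of leukocyte and endothelial adhesion, 6 rose and 1 fell in LC-DTR. In LC-DTA 8 rose and 2 fell. Sele and Selp encode endothelial selectins that slow passing leukocytes, and Icam1 encodes a ligand of leukocyte integrins. Sele rose by 2.27 ± 0.25 (limma adjusted p = 1.33e-05), Icam1 by 1.55 ± 0.22 and Selp by 1.41 ± 0.22 in LC-DTR. Arrb1, encoding an arrestin that turns off receptor signalling, fell in both genotypes, with log2 differences of -0.93 ± 0.08 and -0.81 ± 0.08. The interaction was called for the integrin genes Itgal (1.03 ± 0.18, adjusted p = 0.00196) and Itga4 (0.84 ± 0.18, adjusted p = 0.0052), and with the opposite sign for Sele (-1.08 ± 0.35, adjusted p = 0.0400).

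Monocyte markers moved with the LC-DTA croton oil group. Of 9 tested, 3 rose in LC-DTR and 8 in LC-DTA, where Csf1r fell. The LC-DTR count was 7 without LC-DTR vehicle sample 3, and 5 without LC-DTR croton oil samples 2 and 3 or under quantile normalization. All 9 were higher in LC-DTA than in LC-DTR after croton oil, and 6 had a larger response by the interaction test. The shares of all tested genes called in these directions were 34.3% and 10.5%. The summed level of these markers was 37.1 to 77.8 TPM in LC-DTR vehicle and 61.6 to 111 TPM in LC-DTR croton oil samples. In LC-DTA it was 99.0 to 136 TPM with vehicle and 333 to 402 TPM after croton oil. Csf1r alone was at 24.2 to 40.7 TPM in LC-DTR vehicle and 65.5 to 87.2 TPM in LC-DTA vehicle samples. Under vehicle 2 of the 9, Vcan and Csf1r, were called higher in LC-DTA and 0 lower, beside 19.1% and 5.34% of all tested genes. Ly6c2 and Ccr2 overlapped between the genotypes under vehicle. Ly6c2, a surface marker of inflammatory monocytes, was at 6.00, 4.08, 2.51 and 6.45 TPM in LC-DTR croton oil ears and at 37.7, 63.9, 51.2 and 42.1 TPM in LC-DTA ones. These ranges did not overlap. Ly6c2 reads are uncertain where they match its close relative Ly6c1. Ccr2 is itself in this list. The part of such cells in the chemokine differences was not tested.

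Neutrophil markers rose in both genotypes. Of 7 tested, 6 rose in each genotype, and the interaction was called for none by limma, with 1 gene at an unadjusted p under 0.05. Summed levels were 264 to 771 TPM in LC-DTR croton oil and 440 to 671 TPM in LC-DTA croton oil samples. Within LC-DTR croton oil, Cxcr2, a neutrophil chemokine receptor, was at 73.8, 33.6, 33.7 and 67.8 TPM. Samples 1 and 4 were again the higher pair, as for Ccl2, Ccl3, Ccl4, Ccl7, Ccl8, Ccl9, Ccr1, Ccr2, Il1b and Il6. The monocyte markers Ly6c2 and Plac8 had the same higher pair, whereas Ccl5 and Ccl12 did not. That split was thus not limited to neutrophil genes, and the part of any cell type in it was not tested.

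Markers of resident cells differed between genotypes already under vehicle. In LC-DTA, 9 of 10 tested resident macrophage markers, 8 of 10 mast cell markers, 7 of 8 fibroblast markers and 5 of 8 endothelial markers were higher. None of these was lower by limma, with 0 lower at an unadjusted p under 0.05. Under vehicle 19.1% of all tested genes were called higher in LC-DTA and 5.34% lower. Summed resident macrophage levels were 314 to 504 TPM in LC-DTR vehicle and 661 to 808 TPM in LC-DTA vehicle samples, and fibroblast levels 2321 to 5236 TPM and 7494 to 9315 TPM. After croton oil, resident macrophage levels were 399 to 528 TPM in LC-DTR and 542 to 649 TPM in LC-DTA, and fibroblast levels 2384 to 3456 TPM and 4864 to 6479 TPM. Mast cell levels were 210 to 307 and 414 to 624 TPM under vehicle, and endothelial levels 108 to 130 and 199 to 222 TPM. The part of these cells in the higher Ccl2, Ccl3 and Ccl7 of LC-DTA was not tested.

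With croton oil, 2 of 10 tested resident macrophage markers rose and 5 fell in LC-DTA. Among those that fell was C1qa, a complement gene of tissue macrophages (-0.91 ± 0.16, limma adjusted p = 3.05e-04). The number that fell was 3 without LC-DTA vehicle sample 2 or 3 and 2 without LC-DTA croton oil samples 3 and 4. In LC-DTR 3 rose and none fell by limma, with 0 lower at an unadjusted p under 0.05. There 1 rose without LC-DTR croton oil samples 2 and 3, and 1 fell without LC-DTR vehicle sample 2. The part of resident macrophages in the chemokine response was not tested. Of 7 tested keratinocyte markers 2 rose and 4 fell in LC-DTR, and 3 rose and 2 fell in LC-DTA. Keratinocyte transcripts summed to 33022 to 40578 TPM in LC-DTR vehicle samples and 21958 to 27856 TPM after croton oil, and to 29192 to 30546 TPM and 25022 to 28219 TPM in LC-DTA. Of 6 tested T and natural killer cell markers, 3 fell in LC-DTR, and 1 rose and 3 fell in LC-DTA. Called lower were 29.5% of all tested genes in LC-DTR and 34.5% in LC-DTA. Langerhans and dendritic cell markers had 3 of 7 higher in LC-DTR, and 2 higher and 4 lower in LC-DTA. Eosinophil and basophil markers summed to at most 7.56 TPM in any sample.

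Genes with the nearest pattern to each member were found by the root mean square (RMS) difference of mean-centred log2(TPM + 1) over the 14 samples, where a smaller value means a closer pattern. Ccl7 was nearest to Il1b (0.29), Il6 (0.37) and Ccl2 (0.42). Ccl2 was nearest to Bcl3 (0.38), Ccl7 (0.42) and Osm (0.49), Ccl12 to Sprr2h (0.53), Stfa2 (0.53) and Ccl7 (0.56), and Ccl9 to Clec4d (0.24), Lce3a (0.28) and Osm (0.28). Ccl4 had Osm (0.29) and Ccr1 (0.35) among its 3 nearest, and Ccl3 was nearest to Arid5a (0.24), Nr4a3 (0.26) and Pxdc1 (0.27). Ccl8 was nearest to the interferon-induced genes Ifit1 (0.25), Psmb8 (0.26) and Parp14 (0.27), and its distance to Ccl2 was 1.68. Ccl5 was nearest to Wsb1 (0.28), Spry1 (0.28) and Zglp1 (0.29), and its own spread over the samples was 0.49. All samples enter each distance, so these are descriptions.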

How the data were processed

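Libraries of 14 whole ear samples came from Qiagen RNeasy extracts and a TruSeq Stranded mRNA kit (Illumina), per the labels' protocols. Mouse build mm10 (GRCm38) and the tools HISAT2, featureCounts, Subread and cutadapt appear in the submitters' processing notes. The sources used here do not give the computation of TPM, the annotation or any use of strand. The authors deposited TPM summing to 1000000 per sample over 24062 rows, of which 27 had symbols turned into dates (0.124% to 0.145% of TPM) and were left out. TPM keep no depth, so counting error is unknown and no count test was run.

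Fits used limma 3.58.1 in R 4.3.3 on log2(TPM + 1) with 4 group means and a mean-variance trend, and adjusted p-values over the 14693 tested genes. On simulated data over 14693 genes, 50, 48, 49, 50 and 48 of 50 genes changed 4-fold were recovered, in the order croton oil in LC-DTR, in LC-DTA, genotype under vehicle, genotype after croton oil, and interaction. Of 50 genes changed 1.25-fold 7, 13, 9, 11 and 3 were recovered, 1.5-fold 37, 40, 34, 42 and 24, and 2-fold 49, 44, 44, 46 and 37, in that order. In each simulated comparison 120 to 156 genes were called, 7 or 8 of them falsely. The data had 3389 to 8619 called genes per comparison, and the adjusted p depends on that share, so recovery there may differ. Members and marker lists (150 of 154 entries found, 2 by an older symbol) were chosen with earlier results of these data known. Named genes were the 8 members, 6 receptors, the genes of each list with the lowest p among those called (up to 4) or called against the list's majority, the 3 nearest patterns and defining markers. Some list genes are not reported here and not counted. Alternatives changed the pseudocount, filter, scaling, variance model, replicate block and samples. Figures used matplotlib 3.10.9.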

Additional observations from a re-analysis of the deposited data

Results flagged for a closer look

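The croton oil response differed between LC-DTA and LC-DTR by the interaction test for Ccl4 (1.28 on the log2 scale), for the receptors Ccr2 (2.68) and Ccr1 (1.11), and for the monocyte markers Ly6c2 (2.58), Plac8 (2.08), Ms4a4c (1.88), Fcgr1 (1.5) and F10 (1.29). All 8 were larger in LC-DTA, and no cause was tested. Of 25 other settings, 17 lost the Ccl4 call. Ccr3 had 0.81, but it was tested only because its LC-DTA croton oil samples passed the filter, so this value is no evidence of a difference. Among 28 checks of groups of 4 samples for a sample far from the rest, 1 stood out, Ccl5 at 5.57 TPM in LC-DTA croton oil sample 3, and chance alone gives about 1 in 20.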

How the results depend on the processing

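All 6 members called after croton oil in each genotype, and the 5 called between genotypes after croton oil, were called under each of 26 other settings. Under vehicle the count of 3 higher members ranged from 1 (without LC-DTA vehicle sample 3) to 5 (without LC-DTR vehicle sample 3) as samples were left out. For the interaction, the count of 1 higher member was 0 with a pseudocount of 0.1, with no filter, under median ratio scaling, without LC-DTR croton oil samples 2 and 3 and without LC-DTA croton oil samples 3 and 4, and 2 with a pseudocount of 5. It ranged from 0 to 1 as single samples were left out. The count of 0 lower members was 1 (Ccl3) with a pseudocount of 0.1 and without either of those pairs. That count was 0 to 1 as single samples were left out. In the interaction 2 members, Ccl4 and Ccl3, had an unadjusted p under 0.05. Quantile normalization moved the median genotype difference of all genes under vehicle from 0.10 to -0.01.

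Signs turned only for values that had not been called. Without LC-DTR croton oil samples 2 and 3, croton oil in LC-DTR gave 0.081 (Ccl8) and 0.12 (Ccr2), the genotypes after croton oil -0.22 (Ccl3), and the interaction -0.11 (Ccl2), -0.041 (Ccl7), -0.070 (Ccl8) and -0.074 (Ccl9). Without LC-DTA croton oil samples 3 and 4, croton oil in LC-DTA gave -0.048 (Ccl8) and -0.0241 (Ccrl2), and the genotypes after croton oil -0.18 (Ccl3). Quantile normalization gave -0.10 (Ccr3, LC-DTR), -0.055 (Ccl8, LC-DTA), -0.0080 (Ccr3) between genotypes under vehicle, and -0.091 (Ccl3) after croton oil. Median ratio scaling gave -0.022 for Ccl3 after croton oil. As single samples were left out, croton oil gave -0.62 to 0.26 (Ccl8, LC-DTR), -0.13 to 0.21 (Ccl8, LC-DTA) and -0.052 to 0.17 (Ccrl2, LC-DTA). Likewise the genotypes gave -0.092 to 0.83 (Ccl5) under vehicle and -0.12 to 0.22 (Ccl3) and -0.18 to 0.0092 (Ccl5) after croton oil, and the interaction -0.052 to 0.76 (Ccl2), -0.90 to 0.025 (Ccl5) and -0.25 to 0.64 (Ccl8). The cause was not tested.

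Replicate numbers did not pair the samples: of 19 same-numbered pairs, 2 had a correlation of deviations above 0.1 (range -0.315 to 0.126). With the replicate block the counts of called members were 6, 6, 3, 5 and 1, as without it, and Ccl8 in LC-DTA turned to -0.014. No read depth limits could be set from TPM.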
